A study of Mus musculus with 4 samples.

Results

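The genes described here encode proteins of the acrosome and of sperm-egg fusion. They were chosen from a written list of 36 gene symbols, and all 36 were present among the 25824 symbols of the 4 count tables. Single cell RNA-seq was performed on testes of 2 WT and 2 Ctcf-cKO mice of 15 weeks, each of which gave 1 library made by ddSEQ droplet isolation and 3′ counting. The labels give the strain as C56BL/6J for every mouse, the WT genotype as Ctcf wt/wt and the mutant as Stra8-iCre-Ctcf f/Δ, which carries a floxed and a deleted Ctcf allele. The Cre recombinase is driven by the promoter of Stra8, a gene of premeiotic germ cells, so the somatic cells of a Ctcf-cKO testis are not its target, and Cre without the floxed allele was not analysed here. By the study's methods, littermates with floxed alleles but no deletion also served as WT, and filtrates of 2 tubes were pooled for the mutant. CTCF, a DNA-binding protein that organises chromatin loops, is the targeted gene. WT replicates 1 and 2 held 110 and 49 Ctcf counts, and Ctcf-cKO replicates 1 and 3 held 4 and 7, or 16.4, 10.1, 1.51 and 4.39 counts per 1000000 counts of the library (CPM). Ctcf was thus lower in both Ctcf-cKO libraries, although counts summed over a gene do not tell whether they fall inside the deleted part. Values of 4 mice are given below in this order, WT replicates 1 and 2 and then Ctcf-cKO replicates 1 and 3.

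The acrosome is a secretory vesicle that round spermatids build from the Golgi apparatus and spread as a cap over the nucleus. It stores enzymes and zona-binding proteins in its matrix, is held to the nucleus by a protein plate, and carries in its membranes the proteins that later act in binding and fusing with the egg. Many of its genes are transcribed after meiosis. Many of the mRNAs are stored or lost as the spermatid elongates and its chromatin is packed by protamines. The 36 genes were described in 3 groups by the known role of their products, 14 of the matrix and its enzymes, 12 of acrosome formation and shape, and 10 of the membranes and gamete fusion.

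The libraries differed in depth, at 6701235, 4859455, 2652665 and 1593546 counts. A barcode was taken as a cell when it held 200 to 7000 genes, at most 10% of mitochondrial counts and at least 3 times its library's plateau count, which left 96, 241, 228 and 246 cells with median counts of 15357, 8251, 4668 and 2338. Among these 811 cells 1 barcode was shared by a pair of libraries. The counts may not be single molecules. Values of 4 made up 11.55 and 11.54% of the non-zero entries in WT and 29.97 and 23.08% in Ctcf-cKO. Values of 5 made up 2.812 to 3.543%. The share of 4 was thus higher in both Ctcf-cKO libraries and cannot be told apart from genotype. Counts divided by 4 were fitted as an alternative. Intervals and limits given here therefore cover counting error only.

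Cells were clustered without the 36 genes, and clusters were named from other markers, so that no member defined the stage in which it was measured. Germ cells fell into 64 spermatocyte-like, 64 early spermatid-like, 143 mid spermatid-like and 263 late spermatid-like cells. Early and mid cells both carried round spermatid markers, and the early cluster also had 12 of 20 spermatocyte markers. The mid class joined 2 clusters. The one of 91 cells also had 13 of 18 elongating spermatid markers, and the one of 52 cells had 2 of 18. Late cells carried transition protein and protamine genes of elongating spermatids. A further 204 cells were somatic-like, comprising Leydig-like cells, macrophage-like cells and an unnamed cluster led by GSN and DCN, and a cluster of 73 cells that no marker list named was left out. The spermatocyte-like class held 5, 34, 15 and 10 cells of the 4 mice, the early class 8, 44, 7 and 5, the mid class 7, 97, 32 and 7, and the late class 62, 27, 79 and 95. The round stages, early and mid together, were 15.6% of the cells of WT replicate 1 (95% exact binomial interval, 9.02 to 24.5%) and 58.5% of WT replicate 2 (52.0 to 64.8%), and 17.1% (12.5 to 22.6%) and 4.88% (2.55 to 8.37%) of the Ctcf-cKO mice. The WT replicates lay far apart, and the intervals of WT replicate 1 and Ctcf-cKO replicate 1 overlapped.

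Transcripts of the 36 genes were most abundant in the round stages of every mouse. Together they took 0.893, 1.16, 0.764 and 0.918% of all counts in spermatocyte-like cells. In early spermatid-like cells the share was 1.78, 1.53, 1.58 and 1.57%, and in mid spermatid-like cells it was 1.83, 1.68, 1.36 and 1.99%. Late spermatid-like cells returned to 1.07, 0.953, 0.984 and 0.818%. The round stages lay above the spermatocyte and late classes in each of the 4 mice, and the genotypes overlapped in the early, mid and late classes. Both Ctcf-cKO values lay under WT replicate 2 in spermatocyte-like cells and on either side of WT replicate 1. This is a description of stages, since the classes were made from the same cells.

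**Figure D1:**
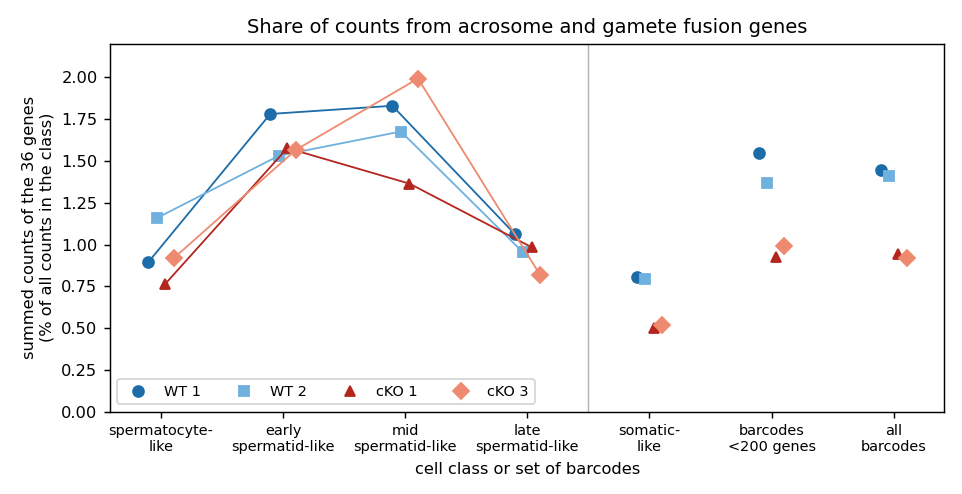
Share of all counts (%, vertical axis) that came from the 36 genes in each germ cell class, in somatic-like cells, in barcodes under 200 genes and in all barcodes, with 1 point per mouse. The share is highest in the early and mid spermatid-like classes of every mouse, and the genotypes separate in the somatic-like, under-200-gene and all-barcode sets.

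Most of the 36 genes are known as germ cell genes, apart from broadly expressed trafficking genes such as AGFG1, GOPC and PICK1, yet somatic-like cells held 0.804, 0.794, 0.501 and 0.518% of their counts in the 36 genes. Barcodes under 200 genes, taken here to stand for free RNA, held 1.55, 1.37, 0.925 and 0.994%. The limit took 1367, 4392, 5592 and 6114 barcodes, while the plateau counts were 1450.5, 794.5, 433 and 303.5. The set may thus be an unlike part of the free RNA in each library, and its genotypes are not compared on equal terms. Levels at or below the somatic-like level of the same mouse were therefore read as background. In mid spermatid-like cells 30 of the 36 genes lay above the somatic-like level in all 4 mice, and in early spermatid-like cells 26 did. In spermatocyte-like cells 14 did, and in late spermatid-like cells only 8 did (SPACA9, IZUMO2, IZUMO3, CRISP2, LYZL1, AGFG1, ACTL7A and ACTL9). Late levels of the other genes were not distinguishable from background in at least 1 mouse. LYZL1 is a weak case among the 8. In WT replicate 2 it had 2 late counts against 0 somatic-like counts, where 1 somatic-like count stood for 23.4 CPM. In Ctcf-cKO replicate 3 it was at 18.3 against 15.0 CPM.

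Among the matrix proteins, ACRV1 (acrosomal vesicle protein 1) followed the stage course of the whole group. ACRV1 was at 124, 136, 45.6 and 0 CPM in spermatocyte-like cells, at 896, 502, 551 and 614 CPM in early and at 812, 690, 633 and 1002 CPM in mid spermatid-like cells, and at 62.7, 123, 78.1 and 69.6 CPM in late cells. The round stages lay above the other germ classes in every mouse. The count of 0 in the spermatocyte-like cells of Ctcf-cKO replicate 3 allows a level of up to 80.8 CPM. SPAM1, the hyaluronidase that disperses the cumulus, was at 323, 100, 142 and 154 CPM in early and 206, 172, 100 and 248 CPM in mid cells, against 21.8, 11.2, 2.60 and 0 CPM in late cells. SPAM1 was among the cleanest of the group by background, with 0, 0, 9.21 and 12.0 CPM in somatic-like cells.

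Other matrix genes were already high before the round stages. SPINK2, a serine protease inhibitor that keeps acrosin in check, was at 987, 834, 528 and 1347 CPM in spermatocyte-like cells, 1074, 680, 951 and 614 CPM in early, 737, 674, 281 and 539 CPM in mid, and 112, 167, 182 and 128 CPM in late cells. SPINK2 was lower in mid than in early cells in all 4 mice, by little in WT replicate 2. ACR, which encodes the trypsin-like protease acrosin, and ACRBP, which binds its proform, had spermatocyte-like levels of 163 to 269 and 385 to 657 CPM, against early levels of 241 to 489 and 568 to 880 CPM. ZPBP and ZPBP2, zona pellucida binding proteins needed for a compact acrosome, had 241 to 593 and 196 to 593 CPM in spermatocyte-like cells.

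The lysozyme-like genes of the matrix began later. LYZL1, LYZL4 and LYZL6 were at 0 to 64.2, 23.3 to 53.9 and 0 to 77.4 CPM in spermatocyte-like cells and at 140 to 431, 129 to 370 and 264 to 496 CPM in mid spermatid-like cells. SPACA3, a further lysozyme-like protein, was at 53.9 to 121 CPM in spermatocyte-like and 566 to 1691 CPM in mid cells. SPACA7, which acts in release of the acrosomal contents, had mid levels of 86.2 to 278 CPM, and PCSK4, a proprotein convertase, had 88.8 to 183 CPM. CRISP2, a cysteine-rich secretory protein of acrosome and tail, differed from the rest of the matrix genes in keeping a high level in late cells, at 4629, 3135, 3879 and 2561 CPM against 2637, 3257, 2416 and 2198 CPM in mid cells. CRISP2 also had 1436 to 2869 CPM in somatic-like cells, the highest such background of the 36 genes.

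Genes of acrosome formation spread over the whole course. ACTL7B, an actin-like protein of the spermatid, peaked in mid cells of every mouse at 1928, 1201, 1012 and 2047 CPM and was at 105, 186, 221 and 154 CPM in late cells. ACTL9, an actin-like protein of the perinuclear theca, ran the other way, at 124, 546, 365 and 242 CPM in spermatocyte-like cells, 134, 618, 107 and 38.4 CPM in early, 695, 762, 825 and 517 CPM in mid and 1232, 1086, 1302 and 1022 CPM in late cells. The lowest late value of ACTL9 lay above its highest mid value. Its spermatocyte-like level was at or below the somatic-like level of the same mouse in all 4 mice. The mean early level of ACTL9 was also at or below its mean somatic-like level. SPACA9 also kept its level in late cells, at 1129, 1272, 690 and 847 CPM, against 967, 759, 728 and 786 CPM in mid cells. ACTL7A, which anchors the acrosome, was at 393 to 850 CPM in mid and 355 to 449 CPM in late cells.

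SPACA1 and DPY19L2, membrane proteins that tie the acrosome to the nucleus, were highest in the round stages by the mean of 4 mice, with early levels of 443 to 960 and 134 to 307 CPM. SPATA16, a Golgi protein of proacrosomal vesicles, had 254 to 427 CPM in spermatocyte-like and 36.6 to 83.3 CPM in late cells. The trafficking genes were low, PICK1 at 45.6 to 109 CPM and GOPC at 19.6 to 53.9 CPM in spermatocyte-like cells. GOPC was highest there in all 4 mice, but on 5, 20, 3 and 2 counts. In Ctcf-cKO replicate 3 GOPC had 4 counts in mid cells, at 43.1 CPM. AGFG1, which acts in fusion of proacrosomal vesicles, had 71.7 to 291 CPM in mid cells, and FAM170B had 183 to 376 CPM. CCDC136 was at 916 to 1150 CPM in spermatocyte-like, 1103 to 1613 CPM in early, 814 to 1088 CPM in mid and 937 to 1377 CPM in late cells, and its somatic-like level of 506 to 1639 CPM overlapped all of them.

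Genes of the membranes and of gamete fusion were mostly highest in the round stages. IZUMO1, the sperm ligand of the egg receptor JUNO, was at 178, 81.8, 169 and 422 CPM in early and 272, 199, 160 and 140 CPM in mid cells, against 46.4, 33.5, 41.7 and 25.7 CPM in late cells. TMEM190, a membrane protein found with IZUMO1 in the acrosome, had 221, 182, 143 and 140 CPM in mid cells, all above the 76.8 to 123 CPM of early cells. SPACA4, which acts in zona binding, likewise peaked in mid cells, at 866, 469, 450 and 1261 CPM. GLIPR1L1, which associates with IZUMO1, was an early gene, at 370, 366, 551 and 538 CPM in early cells and 155 to 215 CPM in mid cells. GLIPR1L1, TMEM190, SPACA4 and ACTL9 were the 4 members whose 4 values in the highest class did not overlap those in the next class.

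EQTN, an acrosomal membrane protein, was at 236 to 388 CPM in early and 205 to 395 CPM in mid cells, and SPESP1, of the equatorial segment, at 682 to 889 and 401 to 873 CPM. SPACA6, which acts beside IZUMO1 in fusion, was scarce, with 43.1 to 120 CPM in mid cells. The other genes of the IZUMO family differed in course. IZUMO2 was higher in late cells (473 to 781 CPM) than in the early cells of the same mouse (0 to 427 CPM), IZUMO3 was at 115 to 231 CPM in mid and 87.9 to 152 CPM in late cells, and IZUMO4 was already at 97.8 to 189 CPM in spermatocyte-like cells. By the mean of 4 mice 15 of the 36 genes peaked in mid, 14 in early, 4 in late (ACTL9, SPACA9, CRISP2 and IZUMO2) and 3 in spermatocyte-like cells (SPINK2, ZPBP2 and GOPC). A peak in the early or mid class held in all 4 mice for 22 genes. The exact class was less stable, and it differed between the 2 WT mice for 16 genes.

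**Figure D2:**
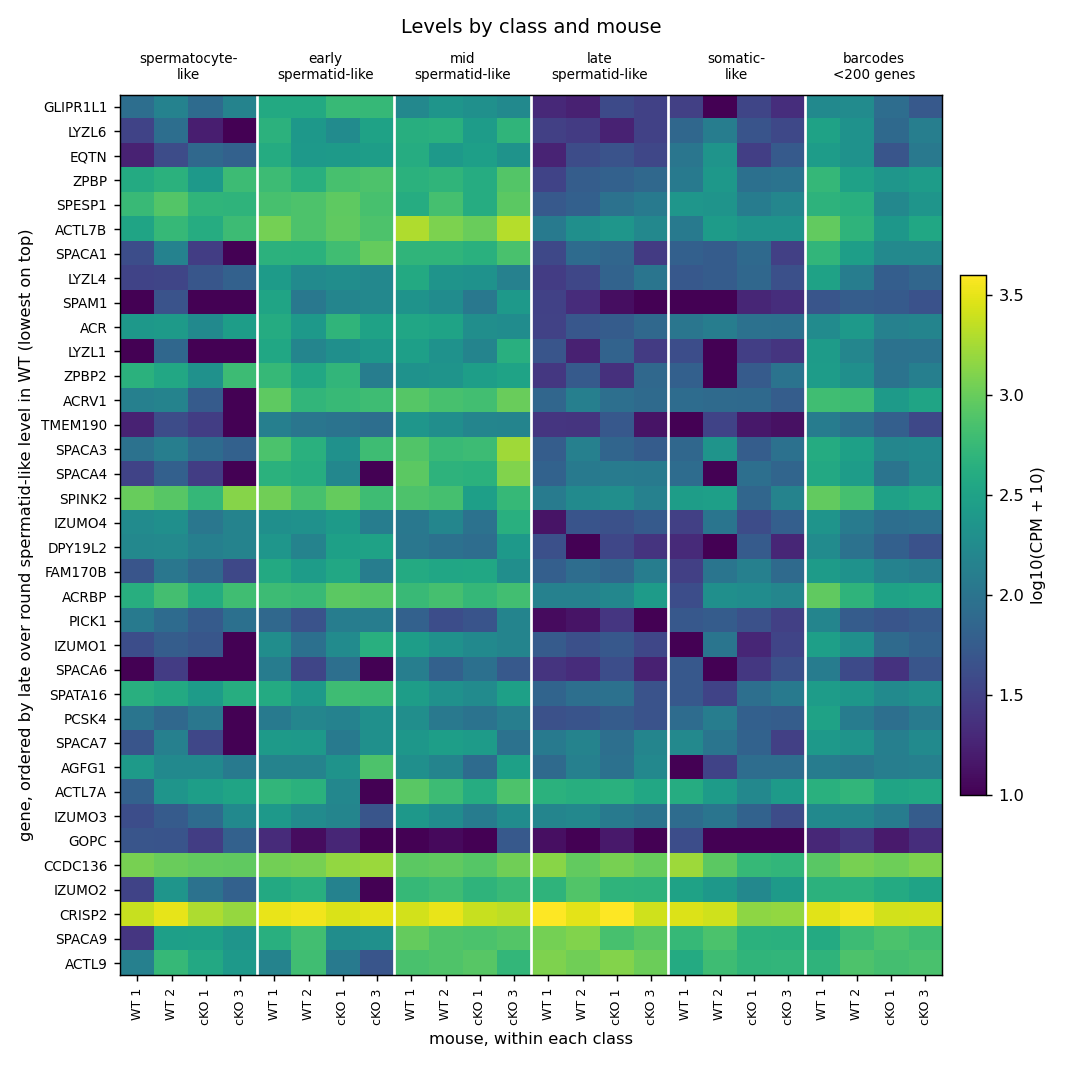
Level of each of the 36 genes, as log10(CPM + 10), in 6 classes or sets of barcodes and 4 mice per class, with genes ordered by the ratio of late to round spermatid-like level in WT. Most genes are bright in the early and mid classes and dark in the late class, and CCDC136, IZUMO2, CRISP2, SPACA9 and ACTL9 at the bottom stay bright in late cells.

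The question of the next comparison was whether these transcripts differed between the genotypes over the whole testis suspension. All barcodes of a mouse were summed, so that fewer cells of a type and less RNA per cell cannot be told apart. The cells held 1940870, 2629850, 1490150 and 811361 of the counts, and barcodes under 200 genes held 104983, 590328, 1081040 and 748090. The remaining counts lay in barcodes of 200 genes or more that were not taken as cells. The limits on genes and mitochondrial counts were passed by 4227, 2075, 327 and 293 barcodes, so the summed mixture differed between the libraries. The 36 genes together took 1.45, 1.41, 0.941 and 0.920% of the counts of the 4 mice, so both Ctcf-cKO mice lay below both WT mice. Of the 36 genes 23 were lower in Ctcf-cKO and 0 were higher by the quasi-likelihood test of edgeR at an adjusted p of 0.05, beside 10.1% of all 14552 tested genes called lower and 18.4% called higher. The median log2 fold change of the 36 genes was -0.80, against -0.04 for all genes tested. Both Ctcf-cKO values lay below both WT values for 34 genes, where 35.8% of all tested genes did so. Of the matrix genes 12 of 14 were lower, of the membrane and fusion genes 7 of 10, and of the formation genes 4 of 12, with median log2 fold changes of -0.91, -0.92 and -0.48.

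SPAM1 (ENSMUSG00000029682.5, GRCm38 chr6:24791188-24801048) fell most among these genes. It was at 151 and 89.5 CPM in WT and at 42.6 and 37.0 CPM in Ctcf-cKO, with a log2 fold change of -1.51 (SE 0.29, adjusted p = 0.0025). LYZL6 (ENSMUSG00000020945.13, chr11:103631070-103638890) was at 270, 243, 78.4 and 102 CPM, with a log2 fold change of -1.45 (SE 0.21, adjusted p = 0.00049). Neither SPAM1 nor LYZL6 overlapped between the genotypes. SPINK2 (ENSMUSG00000053030.11, chr5:77205107-77211471) was at 793, 748, 288 and 309 CPM, a log2 fold change of -1.30 (SE 0.17) with an adjusted p of 0.00024, the smallest of the 36 genes. ACRV1 (ENSMUSG00000032110.4, chr9:36693220-36698843) was at 587, 519, 244 and 244 CPM and ACR (ENSMUSG00000022622.5, chr15:89568326-89574585) at 303, 256, 129 and 124 CPM, with log2 fold changes of -1.11 (SE 0.18, adjusted p = 0.00089) and -1.07 (SE 0.20, adjusted p = 0.0020). Mice of one genotype lay close together for these 3 genes.

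Among the fusion genes, TMEM190 (ENSMUSG00000013091.5, chr7:4782937-4784341) was at 126, 98.4, 52.8 and 23.8 CPM, a log2 fold change of -1.45 (SE 0.33, adjusted p = 0.0072). IZUMO1 (ENSMUSG00000064158.6, chr7:45621811-45628823) was at 181, 149, 74.6 and 52.7 CPM, with -1.29 (SE 0.24, adjusted p = 0.0024), and shares exon sequence with Rasip1 on the same strand, so some of its counts are uncertain. EQTN (ENSMUSG00000028575.11, chr4:94907267-94928843) was at 214, 186, 81.4 and 82.2 CPM, with -1.22 (SE 0.21, adjusted p = 0.0013). Among TMEM190, IZUMO1 and EQTN, the Ctcf-cKO mice differed most from each other in TMEM190, and in EQTN they were alike. GLIPR1L1 (ENSMUSG00000020213.6, chr10:112060189-112078510) was at 179, 171, 97.6 and 49.0 CPM, with -1.17 (SE 0.29, adjusted p = 0.010). DPY19L2 (ENSMUSG00000085576.3, chr9:24557047-24696293), of the formation genes, was at 160, 106, 63.0 and 46.4 CPM, with -1.20 (SE 0.27, adjusted p = 0.0065).

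The remaining 13 genes that fell were ZPBP, ZPBP2, LYZL1, LYZL4, SPACA3, SPACA7 and ACRBP of the matrix, SPACA1, SPATA16 and ACTL7B of formation, and IZUMO3, SPACA4 and SPESP1 of the membranes, with log2 fold changes between -1.07 and -0.68. Exons of ACRBP, SPACA7, ZPBP and ACTL7B overlap antisense or near-identical genes, and whether the counting used strand is not given in the sources used here. The 13 genes that did not pass were IZUMO4, SPACA6, FAM170B, GOPC, PCSK4, PICK1, CRISP2, ACTL7A, AGFG1, IZUMO2, CCDC136, SPACA9 and ACTL9, with log2 fold changes from -0.63 to 0.31. Exons of GOPC, PICK1, CCDC136, SPACA6 and AGFG1 also overlap other genes. ACTL9 (ENSMUSG00000092519.2, chr17:33432896-33434268) was at 489, 692, 700 and 707 CPM (log2 fold change 0.31, SE 0.20, adjusted p = 0.27), and SPACA9 (ENSMUSG00000026809.15, chr2:28692080-28699727) at 538, 623, 607 and 610 CPM (0.13, SE 0.18, adjusted p = 0.62). These 2 genes were the only ones of the 36 with a positive log2 fold change, and in neither did it pass the test.

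**Figure D3:**
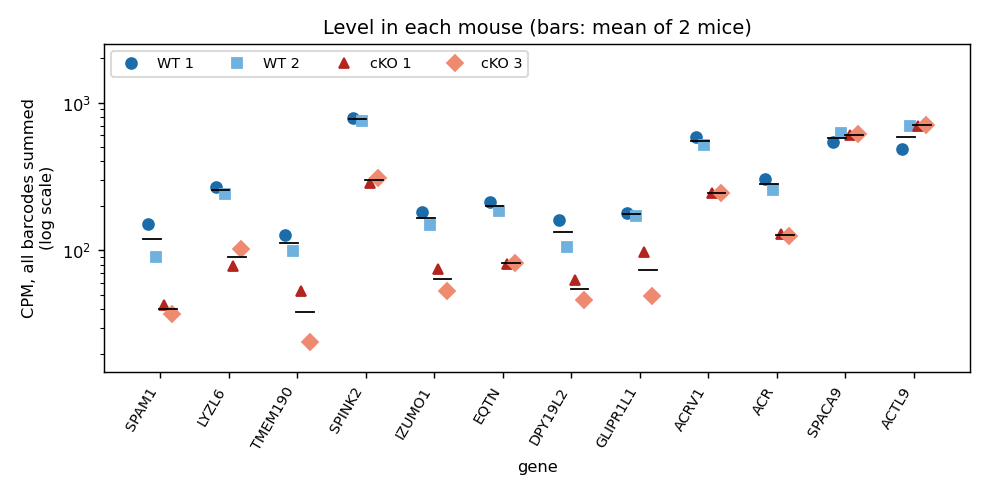
Level in CPM (log axis) of the 10 genes with the largest fall and of SPACA9 and ACTL9 over all barcodes, with 1 point per mouse and a bar at the mean of each genotype. In the 10 genes both Ctcf-cKO points lie below both WT points, and in SPACA9 and ACTL9 they lie within or just above the WT range.

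Germ and somatic markers moved with this difference. Summed over all barcodes, the 20 spermatocyte markers were at 2821, 2772, 1445 and 1438 CPM and the 20 round spermatid markers at 11561, 11815, 8258 and 7975 CPM, while the 18 elongating spermatid markers were at 81734, 114274, 115223 and 117970 CPM. The 13 Leydig markers were at 632, 248, 6982 and 6230 CPM and the 15 macrophage markers at 148, 368, 3930 and 4042 CPM. Spermatocyte and round spermatid markers were thus lower, and Leydig and macrophage markers higher, in both Ctcf-cKO mice, with none of the Leydig markers at 0 in any mouse and 4 of the macrophage markers at 0 in WT replicate 1. Set against the round spermatid markers of the same library, the 36 genes had 1.25, 1.19, 1.14 and 1.15 counts per marker count. Set against the spermatocyte markers they had 5.12, 5.09, 6.51 and 6.40, which were higher in Ctcf-cKO, and against the elongating spermatid markers 0.177, 0.123, 0.0817 and 0.0780, which were lower. The part of the cell makeup in the fall of the 36 genes was not tested.

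The count of 23 genes depended on the 2 Ctcf-cKO libraries and on pooling all barcodes. Without Ctcf-cKO replicate 1 the test called 10 of the 36 genes lower (2.08% of all genes tested), and without Ctcf-cKO replicate 3 it called 6 (2.25% of all genes). Without WT replicate 1 it called 27 lower (6.63% of all genes). Without WT replicate 2 it called 28 lower (13.1% of all genes) and 1 higher, ACTL9 (log2 fold change 0.59, adjusted p = 0.00071). Within the cells alone it called 7 lower (ACRV1, IZUMO3, LYZL1, LYZL6, SPACA7, SPAM1 and SPINK2), beside 3.21% of all genes, with a median log2 fold change of -0.63. In barcodes under 200 genes alone it called 3 of 35 (EQTN, IZUMO1 and LYZL4), beside 0.584% of all genes, with a median of -0.77. SPAM1 had a log2 fold change of 0.0425 there (adjusted p = 0.99), at 38.1, 49.1, 44.4 and 34.8 CPM, on 4, 29, 48 and 26 counts.

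**Figure D4:**
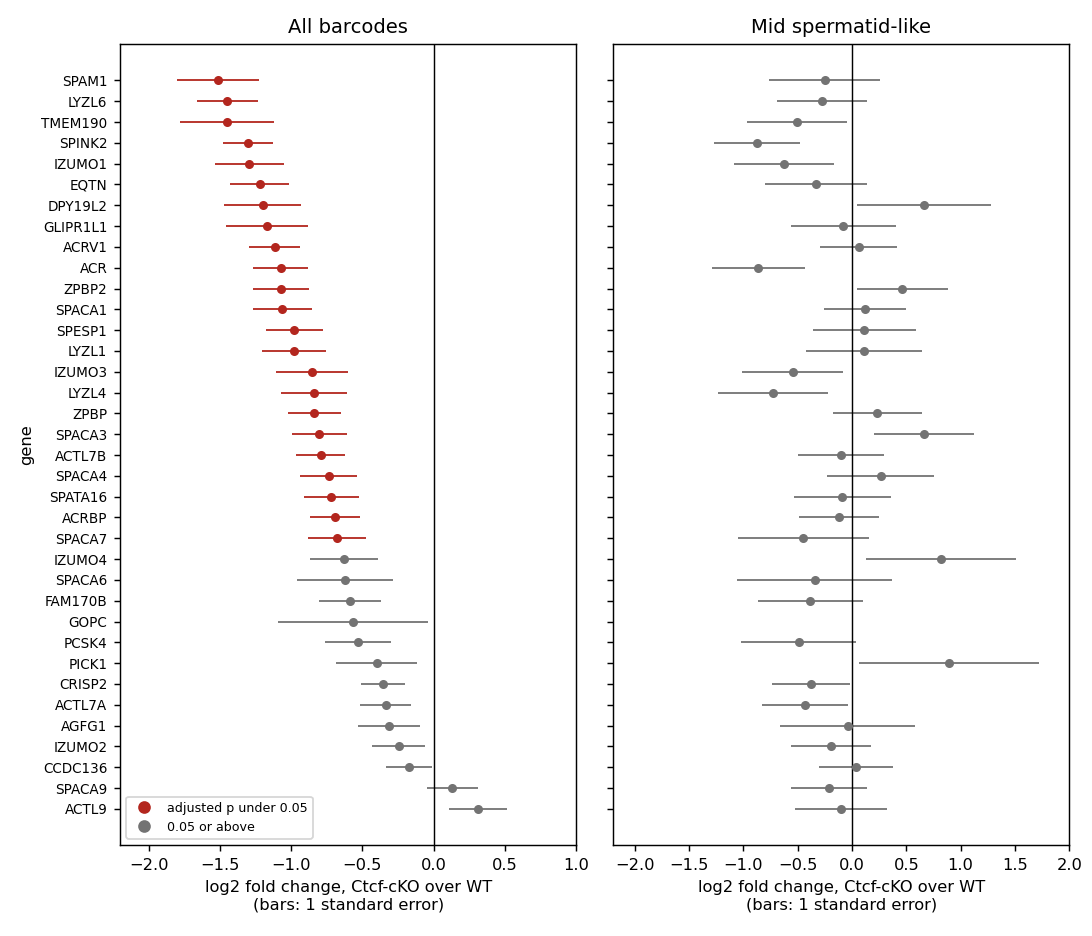
Log2 fold change (Ctcf-cKO over WT, bars of 1 standard error) of each of the 36 genes over all barcodes on the left and of the 35 genes tested in mid spermatid-like cells on the right. Over all barcodes 23 genes pass an adjusted p of 0.05 and lie left of 0, and in mid spermatid-like cells the points scatter around 0 and none passes.

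The size of the fall went with the stage of expression. The ratio of late to round spermatid-like level in WT mice was below 1 for 31 genes, of which 23 were called lower over all barcodes, with a median log2 fold change of -0.84. Of the 5 genes whose late level was above the round level (SPACA9, IZUMO2, CRISP2, ACTL9 and CCDC136), 0 were called and the median was -0.17. Across the 36 genes Spearman's rho between the log2 ratio and the log2 fold change was 0.76 (Pearson's r 0.81). With the ratio taken from the Ctcf-cKO mice it was 0.70 (r 0.76). These are descriptions across genes, which are not independent replicates, and both axes use counts of the same libraries. IZUMO3 departed from the trend, with a log2 ratio of -0.44 and a log2 fold change of -0.85.

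**Figure D5:**
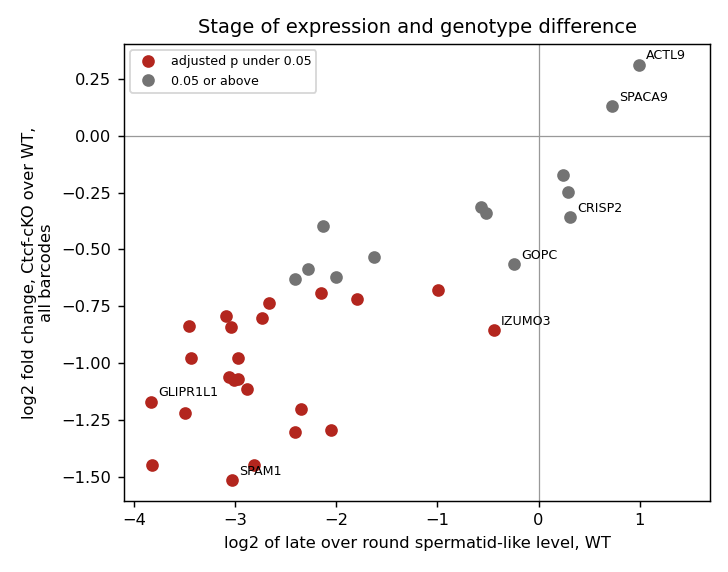
Log2 fold change over all barcodes (vertical axis) against the log2 ratio of late to round spermatid-like level in WT (horizontal axis), with 1 point for each of the 36 genes. Genes with a low late level lie towards the bottom left, and ACTL9 and SPACA9, with the highest ratios, lie at the top right.

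The sequences before the start sites are shown for 2 genes that fell over all barcodes, SPAM1 and IZUMO1, and for the 2 with a positive log2 fold change, ACTL9 and SPACA9. They are the 250 bases before the RefSeq start in GRCm38.p6, at chr6:24790938-24791187 (+), chr7:45621561-45621810 (+), chr17:33432649-33432898 (+) and chr2:28699652-28699901 (-). Capitals mark matches on either strand to TGACGTCA, the cAMP response element bound by the spermatid activator CREM, to its core TGACG, to GTTGCC, a motif of RFX factors, to TATAAA, the TATA box, and to AGGNGGC, a part of the CTCF motif.
SPAM1: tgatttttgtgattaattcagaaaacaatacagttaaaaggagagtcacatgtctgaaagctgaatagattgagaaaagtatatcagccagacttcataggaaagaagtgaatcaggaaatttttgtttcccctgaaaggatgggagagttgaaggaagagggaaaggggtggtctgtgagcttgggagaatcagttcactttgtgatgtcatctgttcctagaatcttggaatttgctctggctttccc
IZUMO1: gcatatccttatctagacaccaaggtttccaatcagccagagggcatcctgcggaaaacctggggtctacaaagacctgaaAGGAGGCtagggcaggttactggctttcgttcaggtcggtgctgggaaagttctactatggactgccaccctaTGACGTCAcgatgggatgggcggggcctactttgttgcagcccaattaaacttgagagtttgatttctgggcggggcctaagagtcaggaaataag
ACTL9: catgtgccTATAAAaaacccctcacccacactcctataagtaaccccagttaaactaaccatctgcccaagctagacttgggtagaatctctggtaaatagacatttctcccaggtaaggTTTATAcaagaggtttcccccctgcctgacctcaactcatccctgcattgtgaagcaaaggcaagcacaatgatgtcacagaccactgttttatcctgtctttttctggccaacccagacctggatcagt
SPACA9: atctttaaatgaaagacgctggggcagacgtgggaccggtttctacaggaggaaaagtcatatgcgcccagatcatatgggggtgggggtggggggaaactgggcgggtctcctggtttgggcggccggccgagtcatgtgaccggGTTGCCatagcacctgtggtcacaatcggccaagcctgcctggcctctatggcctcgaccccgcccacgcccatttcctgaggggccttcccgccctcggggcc
SPAM1 held none of the 5 motifs in these bases. IZUMO1 held the cAMP response element, which contains its own core, and the part of the CTCF motif. ACTL9 held the TATA box once on each strand. SPACA9 held the RFX motif. Promoters were matched for 31 of the 36 genes. TGACGTCA was found in 1 of 31, against 1.62% of all 27025 promoters, and TGACG, which overlaps it, in 7 (SPACA1, CCDC136, ACRBP, IZUMO1, GOPC, SPACA3 and ZPBP2), against 17.9%. AGGNGGC was found in 7 against 24.6%, GTTGCC in 6 (SPACA9, ACTL7B, ACRBP, SPESP1, PICK1 and SPACA6) against 10.5%, and TATAAA in 3 (SPACA7, ACTL9 and CRISP2) against 13%. A match is a description of the letters and not of a bound site.

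Comparison of the genotypes within a class asked whether the transcripts differed among cells of 1 class, which need not match in stage between mice. The 13 Leydig markers were higher in both Ctcf-cKO mice in every germ class. They summed to 23.3, 153, 10352 and 4606 CPM in spermatocyte-like cells and 76.2, 211, 1271 and 307 CPM in early cells. In mid cells they summed to 101, 160, 2608 and 819 CPM. The 15 macrophage markers were higher too, except in early cells, where the genotypes overlapped. The part of these markers in the comparisons was not tested. Spermatocyte-like cells gave 0 calls among the 23 members tested and 0 among all 3559 genes (0% called), with 0 members and 241 of all genes at an unadjusted p under 0.05. The standard errors of the log2 fold changes were 0.44 to 1.19. The largest falls among genes with both Ctcf-cKO mice below both WT mice were in ACRV1 (16, 72, 7 and 0 counts, log2 fold change -1.98, SE 1.11, adjusted p = 0.89), CRISP2 (-0.70, SE 0.49) and IZUMO4 (-0.68, SE 0.70). IZUMO3 (4, 24, 11 and 6 counts, 1.42, SE 0.96) and ACTL7A (1.05, SE 0.81) lay above both WT mice. Both Ctcf-cKO values lay below both WT values for 7 of the 23 members tested and above them for 2, against 24% and 17.5% of all tested genes. The 13 genes too low to test here were SPACA1, SPACA4, SPACA6, SPACA7, SPAM1, IZUMO1, GOPC, LYZL1, LYZL4, LYZL6, EQTN, TMEM190 and FAM170B.

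In early spermatid-like cells 0 of the 35 members tested and 0 of 3895 genes were called (0% called), and 5 members and 242 of all genes had an unadjusted p under 0.05. The median log2 fold change was -0.56 for the members and -0.19 for all genes. Scaling by library totals moved the median of all genes from -0.19 to 0.18 and that of the members to -0.24. Without Ctcf-cKO replicate 1 the members were at -0.89 and all genes at -1.23, and without Ctcf-cKO replicate 3 at -0.28 and -0.25, so whether the members lay below all genes depended on the mice. ACTL9 was at 134, 618, 107 and 38.4 CPM (37, 272, 12 and 1 counts, log2 fold change -2.66, SE 1.04, adjusted p = 0.77), ACTL7A at 508, 446, 151 and 0 CPM (-2.58, SE 0.93, adjusted p = 0.76) and IZUMO2 at 370, 427, 133 and 0 CPM (-2.53, SE 0.95, adjusted p = 0.77). Both Ctcf-cKO mice lay below both WT mice in these 3 genes, all of which were higher in later classes. The mean early levels of ACTL9 and IZUMO2 lay at or below their mean somatic-like levels. In early cells the 18 elongating spermatid markers summed to 11072, 120103, 16337 and 6527 CPM, and their part in these falls was not tested. A count of 0 in Ctcf-cKO replicate 3 allows up to 115 CPM here. Without WT replicate 1, ACTL9 passed the test (log2 fold change -3.49, adjusted p = 0.022), and without WT replicate 2 its log2 fold change was -0.89 (adjusted p = 1.0). The WT mice differed from each other in this gene, and WT replicate 1 was close to Ctcf-cKO replicate 1. AGFG1 (1.20, SE 0.71), PICK1 (0.85, SE 0.89) and SPATA16 (0.59, SE 0.52) lay above both WT mice. Of the 35 members tested 9 lay below and 9 above, beside 14.9 and 23.4% of all tested genes.

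Mid spermatid-like cells gave 0 calls among 35 members and 0 among 4946 genes (0% called), with 0 members and 187 of all genes at an unadjusted p under 0.05. DESeq2 called 0 members in this class as well. The median log2 fold change of the members was -0.12 and that of all genes -0.04, with standard errors of 0.34 to 0.83 for the members. SPINK2 was at 737, 674, 281 and 539 CPM (log2 fold change -0.88, SE 0.40, adjusted p = 0.997), ACR at 332, 314, 183 and 172 CPM (-0.86, SE 0.43) and LYZL4 at 370, 213, 203 and 129 CPM (-0.73, SE 0.51). ZPBP2, at 202, 212, 275 and 312 CPM (0.46, SE 0.42), was the 1 gene with both Ctcf-cKO mice above both WT mice, and 6 genes had both below, beside 17.0 and 17.2% of all tested genes. SPAM1, which fell most over all barcodes, was at 206, 172, 100 and 248 CPM and the genotypes overlapped. The 7 cells of WT replicate 1 all came from 1 of the 2 mid clusters, the one with 2 of 18 elongating spermatid markers. The other 3 mice had cells in both. In mid cells the 18 elongating spermatid markers summed to 48587, 112308, 93615 and 34228 CPM. The part of this mixture in the mid comparison was not tested.

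Late spermatid-like cells were the class in which many genes of the transcriptome differed, with 464 of 3483 tested genes higher (13.3% called) and 89 lower (2.56% called). Of 27 members tested 1 was lower and 0 were higher. SPACA9, an acrosome- and axoneme-associated protein, was at 1129, 1272, 690 and 847 CPM, a log2 fold change of -0.76 (SE 0.25, adjusted p = 0.035). The call was lost without WT replicate 1 (adjusted p = 0.11), without Ctcf-cKO replicate 1 (0.33) or without Ctcf-cKO replicate 3 (0.17), and under most other settings. Without WT replicate 2, SPACA9 (adjusted p = 0.042) and CRISP2 (0.022) were called lower. Of the 27 members tested 3 lay below both WT values in both Ctcf-cKO mice and 6 above, beside 19.2 and 34.1% of all tested genes. ACTL9, which was highest in late cells in all 4 mice, was at 1232, 1086, 1302 and 1022 CPM and the genotypes overlapped. The median log2 fold change of the members was 0.09 and that of all genes 0.01, and scaling by library totals moved them to 0.28 and 0.21. The 9 members too low to test were SPACA6, SPAM1, DPY19L2, GOPC, PICK1, LYZL6, EQTN, TMEM190 and GLIPR1L1, none of which was above 41.7 CPM in the late cells of any mouse. Markers of other cells moved with genotype in this class as well. In late cells the 13 Leydig markers summed to 49.98, 115, 2632 and 3346 CPM, the 15 macrophage markers to 210, 219, 1908 and 2378 CPM and the 4 red blood markers to 1.82, 0, 6975 and 1143 CPM, while the 18 elongating spermatid markers were at 249656, 262039, 197793 and 202843 CPM. Their part in the difference of SPACA9 was not tested.

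Whether the genotype difference itself changed between the mid and late classes was tested with the mouse as a block. Among 35 members 0 passed, as among all 5788 genes (0% called), with 2 members (SPAM1 and LYZL4) and 192 of all genes at an unadjusted p under 0.05. The standard errors of 0.69 to 2.29 on the log2 scale leave large differences undetectable at this depth. Only with free RNA subtracted did 1 member pass, LYZL4, whose difference was higher in late cells (adjusted p = 0.038), beside 0.432% of all genes. LYZL4 was at 19.1, 26.0, 57.3 and 91.6 CPM in late cells and at 42.03, 46.7, 64.4 and 32.9 CPM in somatic-like cells, so its late level was above this background in Ctcf-cKO replicate 3 alone.

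A list of 29 further genes of the acrosome and of fertilisation was examined over all barcodes, of which 28 were tested. Of these 8 were lower, among them TMEM81, HYAL5, TMEM95, DCST1, ZP3R, PDCL2 and DKKL1, and 2 were higher, RAB3A and MFGE8. Among all tested genes 10.1% were called lower and 18.4% higher. TMEM81, a membrane protein of the fusion complex, was at 63.7, 39.7, 8.29 and 24.5 CPM. MFGE8, a secreted adhesion protein, was at 2.98, 7.82, 32.8 and 38.9 CPM over all barcodes and at 73.6, 187, 55.2 and 71.8 CPM in somatic-like cells. RAB3A, a GTPase of vesicle exocytosis, rested on 1, 6, 26 and 5 counts. The median log2 fold change of the 28 genes was -0.39, between those of the 36 genes and of all genes. Within the classes 0 of the 11 to 21 genes tested passed.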

How the data were processed

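The authors captured testis cells in ddSEQ droplets, sequenced 3′ ends and mapped the reads to GRCm38. The deposited values are raw counts, whole numbers for each symbol in each barcode. How reads of a molecule were merged, and the counter's version, are not given in the sources used here. The 36 genes, their groups and the further list were chosen with earlier results of these data known.

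Cells were selected as described, normalised and clustered in Seurat 5.3.0 under R 4.3.3 (2000 variable genes without the 36, 15 principal components, resolution 0.9) after batch correction by an own implementation of Harmony (theta 2, sigma 0.1), and ordered by scanpy 1.11.5 pseudotime. The plateau was the median count at ranks 300 to 1000. A cluster was named by at least 3 markers. For each class the cells of a mouse were added up (5 cells or more in every mouse) and edgeR 4.0.16 was run with its quasi-likelihood F test on these sums, using TMM factors, the filterByExpr filter and adjustment by Benjamini-Hochberg over every gene in the fit. It was checked on simulated counts. The standard error is the log2 fold change over the square root of F. Precision is limited by 2 mice per genotype, whose germ classes summed to 26044 to 1187744 counts. The late to round ratio added 10 CPM to each level. DESeq2 1.42.0 was an alternative. Doublets called by Scrublet (9, 6, 22 and 17 cells) were kept, and left out as an alternative. Gene positions came from the GENCODE annotation of GRCm38, promoters from RefSeq (GRCm38.p6), with no entry matched for ACR, IZUMO4, LYZL1, EQTN and PCSK4. Named genes were up to 10 genes per comparison with the largest change among those past the threshold, or else the 3 largest falls and rises among genes whose Ctcf-cKO mice lay on one side of both WT mice, and up to 3 passing genes of the further list.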

Additional observations from a re-analysis of the deposited data

How the results depend on the processing

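Over all barcodes the number of the 36 genes called was 21 to 26 under other size factors, library totals, DESeq2, other filters on low counts and counts divided by 4, against 23. It was 7 in cells alone and 3 in barcodes under 200 genes alone, both chosen after seeing the data, and 6 to 29 with each mouse left out, all lower but for ACTL9, called higher without WT replicate 2. The fitted log2 fold change of SPAM1 turned positive, at 0.0425 (adjusted p = 0.99), in barcodes under 200 genes alone. Its mean there was 43.6 CPM in WT, with 4 counts in WT replicate 1, and 39.6 CPM in Ctcf-cKO. The cause of the change of sign was not tested. The 10 named genes kept their direction otherwise, and 5 of them passed without Ctcf-cKO replicate 3. In early spermatid-like cells each mouse left out gave 0 to 1 calls. In late spermatid-like cells it gave 0 to 2, and the 1 call became 0 under library totals, no filter, at least 10 counts in every library, 15 of the 36 genes admitted among the variable genes, a resolution of 1.3, doublets left out, free RNA subtracted and counts divided by 4. The difference between late and mid cells gave 1 call with free RNA subtracted. The spermatocyte-like and mid classes gave 0 calls under every alternative that gave a value. No value came from the fit without batch correction (under 5 cells in a mouse), nor for early cells with the 36 genes allowed among the variable genes, as many barcodes as the study counts or doublets left out, nor for mid cells at a resolution of 0.5. No paired analysis was made, because the labels do not pair mice of the 2 genotypes. Depth limits these results, since 3 counts stood for 2.53 to 115 CPM per mouse and germ class.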
